A study of Mus musculus with 8 samples.

Results

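The results concern 9 very long mouse genes that encode proteins of synaptic adhesion and scaffolding, namely Nlgn1, Nrxn3, Csmd1, Csmd3, Cntnap2, Ptprd, Lrp1b, Magi2 and Grip1, and the RBM45 iCLIP peaks inside them. A peak was taken as belonging to a gene when its midpoint lay in the gene body on the annotated strand (GENCODE M21, mm10). The 9 genes held 2753 distinct intervals out of 731580 in both wild-type (WT) CLIP replicates, and they are 9 of 15995 genes with peaks in both. The members were chosen by these peak counts and by their shared peaks. Nlgn1, Csmd3 and Cntnap2 were picked as genes with few peaks of which a large share is found in both replicates, and Magi2 as a broadly covered gene. The counts and shares below are therefore a description, with no test.

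The series mapped where the protein RBM45, which contacts RNA through RNA recognition motifs, sits on transcripts with and without m6A methylation. It used mHippoE-2, a line of transformed hippocampal neurons from Crl:CFW(SW)-024 mice, and every culture, controls included, carried a lentiviral FLAG-HA-tagged mouse Rbm45. The 8 libraries form 4 groups of 2: Mettl3 knockout (KO) CLIP and its size-matched input, from cells that lack the catalytic subunit of the main m6A writer, then WT CLIP and its own input. Input had no antibody, and CLIP used a rabbit antibody against the HA tag, so that the tagged protein made from the virus was the one pulled down. In iCLIP, UV light links protein to RNA, the protein is pulled down, and the linked RNA is sequenced. The peak lists used here come from WT CLIP replicates 1 and 2. Nothing in the labels says whether these were separate cultures, and the read depth behind the peaks is unknown, so that intervals on shares (Wilson, 95%) cover counting error only. Peaks of 1 gene are not independent of each other.

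Neurexins on the sending side of a synapse bind neuroligins on the receiving side, and the receptor phosphatases of the LAR family organise synapses through a different set of partners. CSMD proteins carry the CUB and sushi domains known from complement regulators, and CASPR2, made from Cntnap2, is a neurexin-like protein that holds potassium channels beside the nodes of myelinated axons. MAGI2 and GRIP1 are scaffolds with PDZ domains under the membrane. The genes are among the longest in the genome because of their introns: exons made up 1.30% of the summed length of the 9 bodies.

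The lists had 387749 distinct peaks in replicate 1 and 344700 in replicate 2, of which 84.0% and 83.4% had the least width of 30 bp. A shared peak is a replicate 2 peak of which at least 50% was covered by a replicate 1 peak, as in the deposited shared list of 16399 pairs, or 4.76% of replicate 2 peaks (4.69 to 4.83). Markers of neurons had peaks in both replicates in 12 of 14 genes, with 4 of them holding a shared peak. The same counts were 6 of 7 and 1 for astrocytes, 4 of 7 and 1 for oligodendrocytes, 5 of 6 and 1 for microglia, and 5 of 7 and 1 for endothelium. Of all genes with peaks in both replicates, 38.7% held a shared peak. All these counts are of peaks, not expression, and their part in the results was not tested. The neuron markers ran from no peak in the neurofilament gene Nefl to 212 and 94 peaks, 2 of them shared, in Map2. Rbfox3 had 13 and 10. Some markers of other cell types also had many: the endothelial Flt1 had 138 and 153, 12 of them shared. The astrocyte marker Slc1a3 had 67 and 51, 2 of them shared.

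Strand needs a remark before any count. Across the bodies of 8 of the genes no peak stood on the opposite strand. Grip1 had 9 opposite-strand peaks in replicate 1 and 12 in replicate 2, and all of them repeated an interval that was also listed on the Grip1 strand. They lay where the genes Helb and Grip1os1 run antisense to Grip1. No source used here says how the strand of a peak was set, so a Grip1 peak in those stretches cannot be told apart from a peak of the antisense gene. Whether peaks of the other 8 genes follow the strand of the reads is likewise not known. With strand ignored, the 9 genes kept the same counts, 1399, 1362 and 47 shared. This follows from the opposite-strand peaks given above and is no check of the strand. Antisense genes also covered peaks elsewhere, among them 5 and 1 of Ptprd, 4 and 3 of Magi2 and 2 and 1 of Cntnap2.

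Peak density split the genes into Magi2 and all the others. Magi2 (ENSMUSG00000040003.18, chromosome 5, 19227036 to 20704792, plus strand) had 787 peaks in replicate 1 and 767 in replicate 2, which is 53.3 and 51.9 per 100 kb. The other 8 had between 3.23 and 6.30 per 100 kb in any replicate, so no value of theirs came near those of Magi2. Magi2 alone held 56.3% of the peaks of the 9 genes in each replicate and 55.3% of the shared ones, in 1.48 of 14.06 Mb.

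Among the 8 sparse genes the order by mean density was Ptprd (5.97 per 100 kb), Nrxn3 (5.71), Nlgn1 (5.08), Grip1 (5.05), Csmd3 (4.54), Lrp1b (4.23), Cntnap2 (4.12) and Csmd1 (3.86). The range of the 2 replicates overlapped between neighbours in this order, except between Nrxn3 and Nlgn1 and between Grip1 and Csmd3. Csmd1 had the widest relative spread, with 53 peaks in replicate 1 and 74 in replicate 2, and Lrp1b had 100 and 74. Csmd3, with 55 peaks in both, had no spread at all.

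The same split ran through all 234 genes of 500 kb or more that had peaks in both replicates. Of them 138 had under 10 peaks per 100 kb, with 77 packed between 4 and 6, 37 lay between 10 and 30, and 59 reached 30 or more. The 8 sparse members stood in the first set and Magi2 in the last, at rank 31 of 234, with Ptprd at 117, Nrxn3 at 124 and Csmd1 at 198. The limit of 10 was chosen after the values were seen. Over all 15995 genes, most of them far shorter (median 27.9 kb), the median density was 46.6 and 37.5 per 100 kb, so Magi2 lay near the typical gene and the 8 others well under it. Whether these densities follow the amount of RNA was not tested, since no expression value was used here. In a bulk culture, fewer cells with a transcript and less RNA per cell could not be told apart either.

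**Figure D1:**
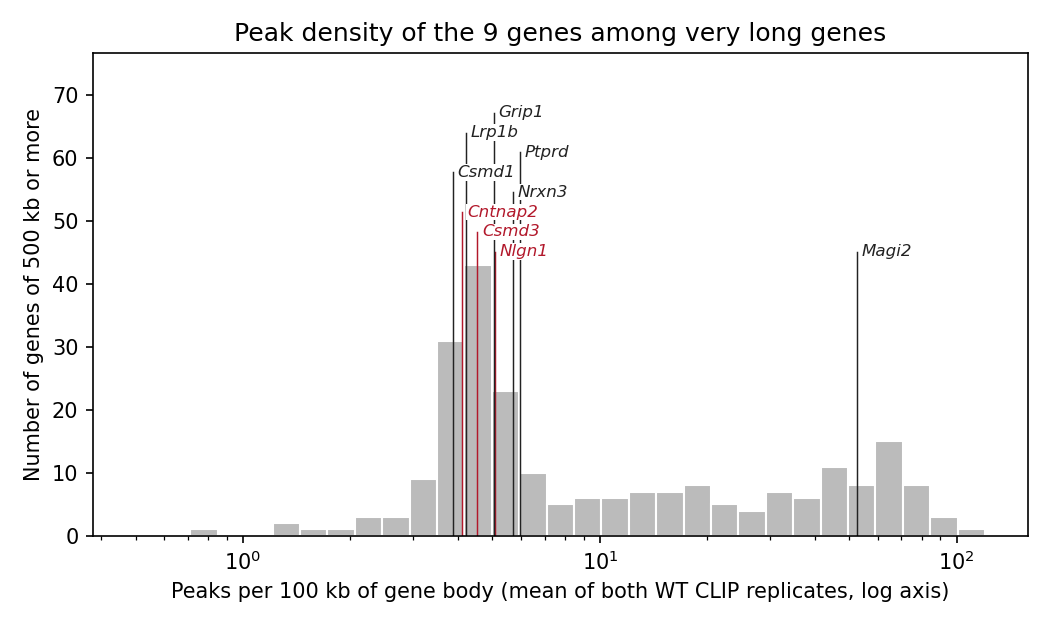
Number of genes of 500 kb or more (vertical axis) by peaks per 100 kb of gene body, mean of both WT CLIP replicates (horizontal log axis). Red lines mark Nlgn1, Csmd3 and Cntnap2 and black lines the other members; line height only separates the names. The 8 sparse members lie in the tall group of sparse genes and Magi2 lies in the smaller dense group.

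Peaks of the sparse genes were nearly all of one kind. The authors' fold over background took its commonest value, 1.95 in replicate 1 and 1.92 in replicate 2, in 91.0% and 92.1% of the peaks of the 8 sparse genes. In Magi2 the same share was 19.2% and 35.1%, and over all peaks 16.6% and 27.2%. Peaks wider than 30 bp made up 3.59% and 3.19% in the sparse genes and 14.0% and 15.1% in Magi2. Other long genes showed both patterns: the commonest fold stood in 88.0% and 90.8% of peaks of the sparse non-members and in 22.3% and 36.7% of peaks of the denser ones.

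Of the 9 genes, 8 held a shared peak. The background is high, since 77.8% of the long genes and 38.7% of all genes with peaks in both replicates did so, and among sparse long genes it was 65.9%. The 9 genes together had 47 shared peaks, or 3.45% of 1362 replicate 2 peaks (2.60 to 4.56), which is below the share over all peaks.

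Nlgn1, Csmd3 and Cntnap2 together had 13 shared peaks among 198 in replicate 2, or 6.57% (3.88 to 10.9), and Magi2 had 26 among 767, or 3.39% (2.32 to 4.92). The intervals overlap. The other 5 genes had 8 among 397, or 2.02% (1.02 to 3.93). The 130 sparse long genes that are not members had 3.08% (2.65 to 3.59), and the 3 few-peak genes were higher, as their choice made them. Magi2 is a dense gene, and the 96 long genes with 10 or more peaks per 100 kb, Magi2 included, had 3.98% (3.76 to 4.21). All long genes other than the members had 3.85% (3.65 to 4.06), beside 3.45% in the whole set. At least 4 shared peaks were found in 5 of the 9 genes, namely Magi2, Nlgn1, Csmd3, Cntnap2 and Ptprd. The members were chosen partly by their shared peaks. Of all long genes 38.5% had as many. Among sparse long genes it was 9.42% with the sparse members included, and 9 of the 130 that are not members.

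Part of the higher share in the few-peak genes came from pairs with the same start and end in both replicates. Such identical pairs were 5 of 13 in Nlgn1, Csmd3 and Cntnap2, 1 of 8 in the other 5 genes and 2 of 26 in Magi2. With identical pairs left out, an alternative added after the data were seen, the share was 4.15% (8 of 193) in the few-peak genes and 3.14% (24 of 765) in Magi2. Identical pairs were also common in sparse long genes that are not members, with 41 of 159 (25.8%), and rare in the denser ones, with 60 of 1105 (5.43%).

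Strong peaks were few in the sparse genes, and a large part of them was shared. Of the 9 peaks with a fold of 3 or more in replicate 1 of the 8 sparse genes, 5 were shared (55.6%, 26.7 to 81.1), and in replicate 2 it was 3 of 8 (37.5%, 13.7 to 69.4). Nlgn1, Csmd3 and Cntnap2, which were chosen for their shared peaks, held 3 of those 5 and 2 of those 3. In Magi2 the shared strong peaks were 1 of 37 in replicate 1 (2.70%, 0.479 to 13.8) and 2 of 33 in replicate 2 (6.06%, 1.68 to 19.6). Below a fold of 3 the shares were 2.65% and 3.07% in the sparse genes and 3.33% and 3.27% in Magi2. The few-peak genes alone had 5.41% and 5.67%, above Magi2 as in the full counts. The sparse long genes outside the set had 41.5% and 39.2% of their strong peaks shared, the denser ones 12.1% and 10.6%, and all peaks together 13.4% and 12.2%.

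The trans-synaptic pair comes first. Nlgn1, the neuroligin 1 gene (ENSMUSG00000063887.13, chromosome 3, 25426215 to 26332460, minus strand, 906 kb), had 48 peaks in replicate 1, 44 in replicate 2 and 4 shared, or 9.09% of replicate 2 (3.59 to 21.2). Its strongest peak was the same 30 bp in both libraries, 25484829 to 25484858, with a fold of 4.88 in replicate 1 and 8.65 in replicate 2. It lay 93.5% of the way along the gene, in intron 5 of the transcript with the longest coding sequence, 44.8 kb from the nearest exon edge. That intron spans 473 kb and held 27 of the 48 and 24 of the 44 peaks, in step with its 52.1% of the gene.

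The other 3 shared peaks of Nlgn1 were weaker. Those at 26300008 to 26300037 (fold 2.93 in replicate 1 and 1.92 in replicate 2) and 26214638 to 26214667 (1.95 and 2.88) were in intron 1, and that at 26102351 to 26102380, at the commonest fold in both, in intron 3. All lay 29.3 to 31.0 kb from an exon.

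Nrxn3, which encodes neurexin 3 (ENSMUSG00000066392.11, chromosome 12, 88722876 to 90334935, plus strand, 1612 kb), had 97 and 87 peaks but 1 shared, or 1.15% (0.203 to 6.23). This peak, at 90110978 to 90111037 in intron 15, was 60 bp wide and the strongest of the gene in replicate 2 (fold 3.84), against 1.95 in replicate 1. The strongest in replicate 1 (fold 4.88, at 89877563) had no replicate 2 peak within 21 kb (21744 bp). Nrxn3 therefore had more peaks than Nlgn1 in both libraries and fewer shared ones.

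The CSMD genes also differed in their shared peaks. Csmd3 (ENSMUSG00000022311.15, chromosome 15, 47580637 to 48792063, minus strand, 1211 kb) had 5 shared peaks among 55 in each replicate, or 9.09% (3.95 to 19.6). The one at 48209605 to 48209644, in intron 10, was its strongest in both libraries, with a fold of 4.88 in replicate 1 and 4.76 in replicate 2. The other 4 had a replicate 2 fold of 1.92. They lay at 48527781 in intron 4, at 48019693 in intron 13, at 47992910 in intron 16 and at 47846529 in intron 30, the last 0.563 kb from an exon. The pairs at 48019693 and 47846529 were identical in both replicates.

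Csmd1 (ENSMUSG00000060924.15, chromosome 8, 15892537 to 17535586, minus strand, 1643 kb) is longer, yet had 53 and 74 peaks and 1 shared, or 1.35% (0.239 to 7.27), at 17507859 in intron 1. It had no peak with a fold of 3 or more in any replicate, and its strongest peaks were at 2.93 and 2.88.

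Cntnap2 (ENSMUSG00000039419.17, chromosome 6, 45059357 to 47304213, plus strand, 2245 kb) had 86 and 99 peaks and 4 shared, or 4.04% (1.58 to 9.93). That at 45831964 to 45831995, in intron 3 and 88.8 kb from an exon, was the strongest of replicate 1 (fold 7.81) and had 2.88 in replicate 2. The peak at 45582736 was in intron 1. The last 2, at 47241659 and 47243706 in intron 21, were identical pairs at the commonest fold, 2.05 kb apart. They ended 2699 and 652 bp before the start of a short coding transcript, ENSMUST00000199100.4, at 47244387.

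Ptprd, the gene of receptor phosphatase delta of the LAR family (ENSMUSG00000028399.18, chromosome 4, 75941238 to 78211961, minus strand, 2271 kb), was the richest of the sparse genes with 143 and 128 peaks and 4 shared, or 3.13% (1.22 to 7.76). Its peak at 77145238 had a fold of 16.5 in replicate 1, the highest of that library in the 9 genes, and 2.38 in replicate 2. The second, at 76755949 to 76755980, had 3.90 and 2.88, and those at 77442755 and 77884707 were at the commonest fold. All 4 lay upstream of the transcript with the longest coding sequence, in introns of longer transcripts.

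Single Ptprd peaks were denser toward the 3′ end in both replicates. The last 30% of its length held 65 of 143 peaks in replicate 1 (45.5%, 37.5 to 53.6) and 64 of 128 in replicate 2 (41.5 to 58.5%). None of the shared peaks was there.

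Lrp1b, which encodes a giant receptor of the LDL receptor family (ENSMUSG00000049252.17, chromosome 2, 40595246 to 42653624, minus strand, 2058 kb), had 2 shared peaks, or 2.70% (0.744 to 9.33), at 42058844 in intron 2 and, as an identical pair, at 40865350 in intron 57. Its strongest peaks, 4.79 in replicate 1 and 3.93 in replicate 2, were not shared. The nearest peaks of the other replicate were 8813 and 20932 bp away.

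The scaffolds were the extremes of the set. Magi2 had 26 shared peaks, 7 in intron 1, 15 in intron 2 and 4 further on. The strongest by its lower fold was at 19281906 to 19281935 (5.97 in replicate 1 and 3.88 in replicate 2). Next came 19992164 to 19992219 (2.93 and 2.88), the end of a cluster of 3 that began at 19990858, and then 19730187 to 19730234, 20395059 to 20395103 and 19824302 to 19824331, each at 1.95 in replicate 1.

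The strongest Magi2 peaks of each library were not shared. That of replicate 1, at 19402168 to 19402236 with a fold of 7.63, was 559 bp from the nearest replicate 2 peak, and that of replicate 2, at 19258734 to 19258771 with 5.41, was 655 bp from the nearest in replicate 1. Peaks of one library were spaced at a median of 0.876 and 1.02 kb in Magi2 and at 8.26 to 21.1 kb in the other genes, so that a near neighbour was common in Magi2. The strongest peaks of Nlgn1 and Csmd3 were shared in both directions.

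Magi2 peaks thinned out along the gene, in a way that differed between replicates. The first 60% of the length held 658 of 787 peaks in replicate 1 (83.6%, 80.9 to 86.0) and 546 of 767 in replicate 2 (71.2%, 67.9 to 74.3). Intron 1, 30.5% of the gene, had 324 peaks in replicate 1 and 207 in replicate 2, while intron 2, 26.2% of it, had 302 and 320. In bins of 10% of the length, replicate 1 was highest in bins 2 and 4 (148 and 149 peaks), and replicate 2 in bin 5 (168).

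Grip1 (ENSMUSG00000034813.17, chromosome 10, 119453830 to 120087261, plus strand, 633 kb) had 30 and 34 peaks and no shared one, which allows a share of up to 10.2% (Wilson). The last 10% of its length held 7 of 30 and 14 of 34 peaks, and of these 4 and 11 lay under the antisense gene Helb. All of those were also listed on the opposite strand. Its strongest replicate 2 peak, at 120086072 with a fold of 3.71, was in the same stretch.

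**Figure D2:**
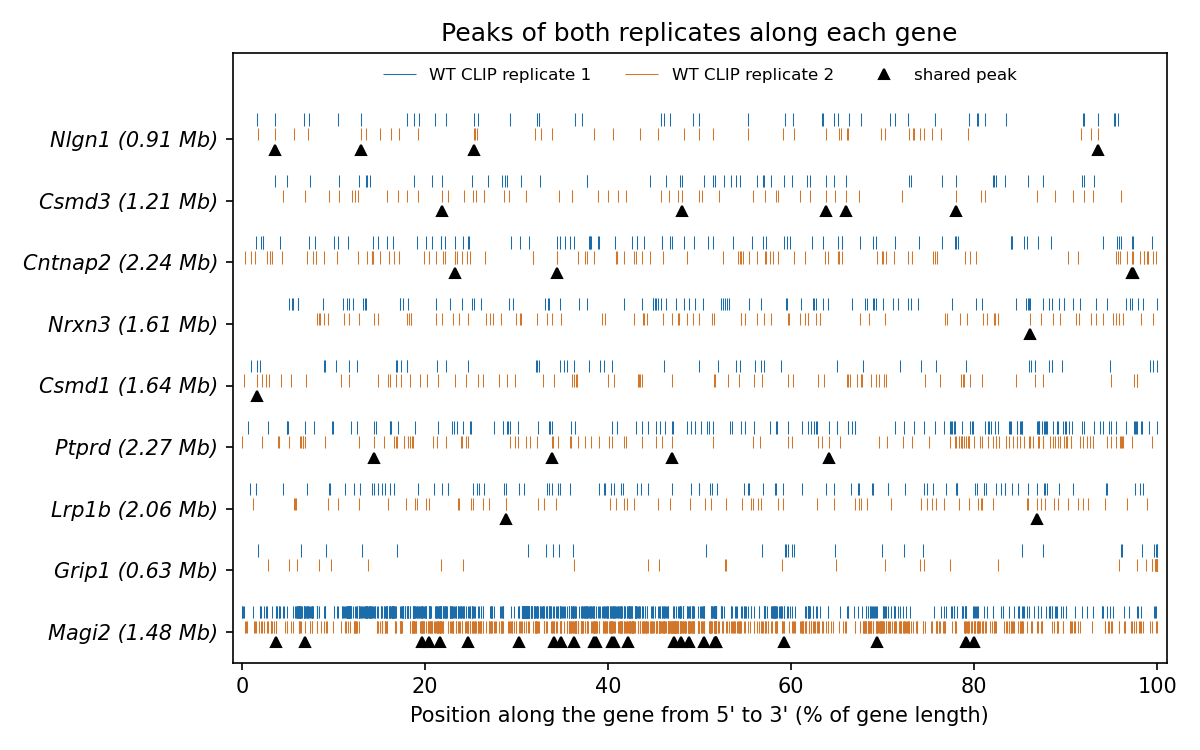
Position of each peak along its gene in percent of the gene length from 5′ to 3′ (horizontal axis), for the few-peak genes on top, the other sparse genes below them and Magi2 at the bottom; blue ticks are WT CLIP replicate 1, orange ticks replicate 2 and triangles shared peaks. Magi2 is covered throughout with the densest part before its middle, Ptprd thickens toward its 3′ end, and Grip1 has no triangle.

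**Figure D3:**
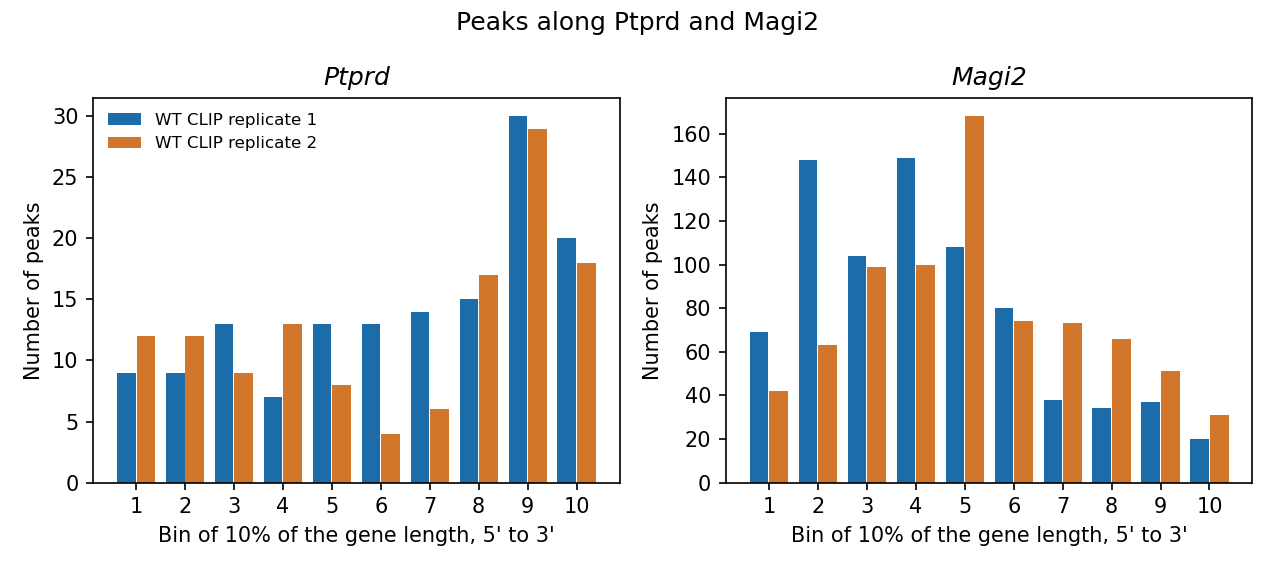
Number of peaks (vertical axis) in each bin of 10% of the gene length from 5′ to 3′ (horizontal axis) in Ptprd and Magi2, with blue bars for WT CLIP replicate 1 and orange bars for replicate 2. Ptprd has its highest bars in bin 9 in both replicates (30 and 29), whereas in Magi2 the highest bar is in bin 4 in replicate 1 and bin 5 in replicate 2.

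Over the 47 shared peaks, both folds reached 3 in 3 cases, 1 each in Nlgn1, Csmd3 and Magi2, and at least one fold did in 8. Over all shared pairs both did in 18.6%. Both folds were at the commonest value in 7 of 13 pairs of the few-peak genes and 3 of 26 of Magi2, against 6.91% of all pairs. Of all peaks of the few-peak genes, 91.5% in replicate 1 and 93.9% in replicate 2 were at the commonest value. Of their peaks with a fold of 3 or more, 3 of 4 in replicate 1 and 2 of 4 in replicate 2 were shared.

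**Figure D4:**
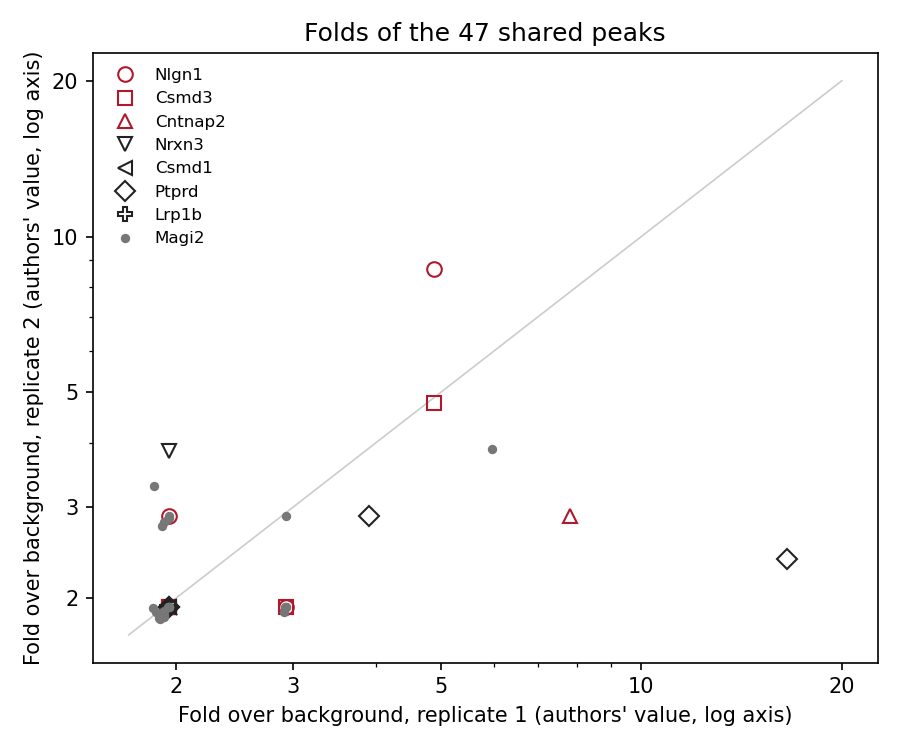
The authors' fold over background of each of the 47 shared peaks in replicate 1 (horizontal log axis) and replicate 2 (vertical log axis), with red symbols for the few-peak genes and grey dots for Magi2; the line marks equal values. Most symbols lie on top of each other near 1.95 and 1.92, and the peaks that stand away from that point belong to Nlgn1, Csmd3, Cntnap2, Ptprd, Nrxn3 and Magi2.

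All 47 shared peaks were intronic (92.4 to 100%), as were 1389 of 1399 peaks in replicate 1 (99.3%) and 1349 of 1362 in replicate 2 (99.0%), counting any exon of the basic set on the strand. Over all genes, most of them far shorter, the shares were 88.4% for shared peaks and 90.1% and 90.8% for the replicates. Exons made up 1.30% of the length of the 9 bodies, so nearly every position in them is intronic. The shares therefore show no preference for introns. Shared peaks stood apart from each other: 9 of 47 (19.1%, 10.4 to 32.5) had another within 10 kb, against 53.3% of all shared peaks, most of which lie in denser genes. In the sparse genes the only such pair was the one in intron 21 of Cntnap2.

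The exonic peaks, all found in a single replicate, are those whose letters could be read, since no transcript covers a shared one. They were read from transcripts beyond the basic set, retained introns among them, and so are not the same peaks as the exonic ones left out of the intron shares above. Of the 23 exonic peaks of 30 bp, 8 held GAC, the middle of the m6A consensus form GGACU (34.8%, 18.8 to 55.1), against 30.8% of such peaks over all genes. Of the 23, 18 lay in an exon of the member itself, 5 of them with GAC, and the other 5 lay in exons of other genes on the same strand, 3 of them with GAC. GAC was searched on the transcript strand alone, and GGACT and TTTTT were in none of the 23, against 2.68% and 5.20% over all genes. Wider exonic peaks are not in these counts, and TTTTT was in those of Ptprd at 75943543 (33 bp) and Grip1 at 120087166 (31 bp). Nlgn1 and Csmd3 had no exonic peak. The sequences below, read 5′ to 3′ from GENCODE M21 transcripts (GRCm38), show examples: coding and retained-intron peaks of Magi2 and Ptprd with GAC in capitals, coding peaks of Ptprd, Lrp1b and Grip1 without it, and 3′ UTR peaks of Cntnap2 and Csmd1 in runs of A. The other 4 of the 6 peaks in 3′ UTRs, in Magi2 and Grip1, had runs of at most 4 A.
Magi2, coding, chr5:20600841-20600870, plus strand, replicate 1: aagtgggcGACcgtatcttagcagtcaacg
Magi2, coding, chr5:20465865-20465894, plus strand, replicate 2: tcattctttgcactccatgccagctGACgg
Magi2, retained intron, chr5:19228109-19228138, plus strand, replicate 1: aaggaaaggGACaaattggtttgGACgctt
Ptprd, retained intron, chr4:76083017-76083046, minus strand, replicate 1: acaactacaaagtagGACaaatagtggccc
Ptprd, coding, chr4:76133231-76133260, minus strand, replicate 2: tcacctgtgtggcagtggggtcaccaatgc
Lrp1b, coding, chr2:41449251-41449280, minus strand, replicate 2: tcgctgcaagaacaaacactgtatccaagc
Grip1, coding, chr10:120086968-120086997, plus strand, replicate 2: tgtatacttttggcaaagcctctgagaaag
Cntnap2, 3′ UTR, chr6:47301362-47301391, plus strand, replicate 2: tataaaccaaaaaaaaaaaaaaaaaaaaaa
Csmd1, 3′ UTR, chr8:15892951-15892980, minus strand, replicate 1: aaaaaaaaaagggagaaaagaaagctggca

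The Cntnap2 and Csmd1 peaks had 26 and 19 A of 30 bases, with unbroken runs of 22 and 10. Both sat at the commonest fold of their replicate. The retained-intron peak of Magi2 held GAC 2 times and was near the 5′ end of the gene.

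A wider list of 98 genes of synaptic adhesion and scaffolding had peaks in both replicates in 88, and 52 of these held a shared peak (59.1%, or 44 of 79 without the members), with a median share of 2.31% of replicate 2 peaks. Its genes are long, with a median of 284 kb, so the share stands beside 38.7% of all genes and 77.8% of the long ones and says nothing particular about the list.

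Several paralogs of the members had no shared peak. Among neuroligins and neurexins, Nlgn2 (8 and 3 peaks), Nlgn3 (1 and 8) and Nrxn2 (2 and 9) had none. Csmd2 (17 and 23) had none, nor did Cntnap1 (3 and 9), Cntnap3 (11 and 4), Cntnap4 (13 and 14) and Cntnap5c (24 and 24). Cntnap5a had 1 (43 and 41), whereas Cntnap5b had 4 with only 37 and 28 peaks, a share of 14.3%.

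Among the other paralogs, Magi1 had 484 and 394 peaks, 79.5 and 64.8 per 100 kb, and 12 shared, and Magi3 had 112 and 87, 54.1 and 42.0 per 100 kb, and 1 shared, so that all 3 MAGI genes were dense. Ptprf had 50 and 47 peaks with 3 shared, and Ptprs 27 and 51 with 4, in bodies of 83.2 and 64.1 kb, so that both were denser than Ptprd. Lrp2 had 177 and 74 peaks, 109 and 45.8 per 100 kb, with 10 shared, Lrp1 10 and 14 with 1, and Grip2, at 7.61 and 4.56 per 100 kb, 5 and 3 with 1.

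The 10 genes with most shared peaks in the rest of the list all had more than 10 peaks per 100 kb in both replicates. The teneurins Tenm3 and Tenm4, large trans-synaptic adhesion proteins, had 16 and 9, and their receptor gene Adgrl3, a latrophilin, had 16. The active-zone scaffold genes Rims2, Erc2 and Erc1 had 12, 10 and 5. Cadm1, Dlgap1 and Gphn, the gene of the inhibitory scaffold gephyrin, had 8 each, and Clstn1 had 5.

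Genes most like the mean of Nlgn1, Csmd3 and Cntnap2 in length and in the 3 peak counts, by distance over 4 log2 values across 2 libraries, were Tenm2 (distance 0.268, with 53 and 59 peaks and 4 shared), Anks1b (0.438), Agbl4 (0.569), Kcnip4 (0.576) and Il1rapl2 (0.58). Nearest to Magi2 were Pde4d (0.491, with 592 and 664 peaks and 23 shared), Prkg1 (0.627), Cdh13 (0.637), Gpc6 (0.725) and Wwox (0.901).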

How the data were processed

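The submitters' processing notes name deepTools 3.2.1, HOMER 4.11.1, bedtools 2.25.0, the peak caller MACS2 2.1.1.20160309 and the aligner Novoalign 3.09.00, with mm10, but no order or settings. Each deposited peak has the authors' score, the authors' fold over background (a ratio) and the −log10 p of the peak caller, whose threshold in the deposited peak names is p 0.005. No source used here says whether input was the control. Repeated lines (267229 of 654978 in replicate 1 and 237090 of 581790 in replicate 2) were reduced to distinct intervals. A fold or −log10 p was not compared in size between the lists as a change. The same cutoffs were set in both lists, and shared peaks were ranked by the lower of their folds.

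The shared list is attached in the labels to a WT input sample but pairs peaks of the CLIP replicates: all 16399 pairs were equal to those recomputed here. Introns were numbered on the transcript with the longest coding sequence. No genome sequence was used here. A deposited count table has 8 library columns whose names match no sample, so they were not used and the Mettl3 KO was not compared with WT. The overlap code was tested on simulated data.

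The members and lists were chosen with earlier results of these data known. Named were all members, their paralogs, the 10 other genes of the list with most shared peaks, the 5 genes most like each pattern, and every shared peak of a member with 6 or fewer, otherwise 5. A few items that this rule covers are not reported here. Genes below 500 kb outside these, such as Rbfox3, Map2, Nefl, Flt1 and Slc1a3, were named after their values were seen. Python 3.11.15, numpy 2.4.6, pandas 2.3.3 and matplotlib 3.10.9 were used.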

Additional observations from a re-analysis of the deposited data

How the results depend on the processing

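No paired analysis was possible because the values come from no test and 1 group had peak lists. At a −log10 p of at least 5, the 9 genes kept 91 peaks in replicate 1, 15 in replicate 2 and 2 shared (13.3% of replicate 2). The share was then 100% in the few-peak genes (2 of 2) and 0% in Magi2 (0 of 11), 100 points apart, and the density 0.183 and 2.20 per 100 kb. At a −log10 p of at least 3, Magi2 had 30.5 per 100 kb, against 52.6 in the main count, and 13 shared peaks in place of 26. The few-peak genes then had 4.41 per 100 kb, against 4.44, and kept their 13 shared peaks. Counting any overlap of 1 bp, Magi2 had 5.48%, all members 4.85% and the few-peak genes 7.58%. Shared peaks had a shared neighbour in 6.38% of cases within 1 kb and 57.4% within 50 kb. Among genes with at least 5 peaks in each replicate, 73.1% of the synaptic list and 58.2% of all genes held a shared peak. With each replicate left out in turn, densities were 4.33 to 4.54 per 100 kb in the few-peak genes and 51.9 to 53.3 in Magi2, and intron shares 99.0% to 99.3%. Set against all peaks, 2 orders turned. The share of the 9 genes was above that of all peaks at a −log10 p of at least 5 (13.3% and 12.6%). The share of the few-peak genes was below it at 1 bp of overlap (7.58% and 7.85%) and with identical pairs left out (4.15% and 4.52%). The cause of these shifts was not tested.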

Other observations

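Besides Nlgn1, Csmd3, Cntnap2 and Ptprd, other sparse genes of 500 kb or more had at least 4 shared peaks. Dmd, the dystrophin gene, had 8 with 144 peaks in replicate 1 and 163 in replicate 2, Ctnna3, an alpha-catenin gene, had 7 with 66 and 76, and Anks1b had 5 with 63 and 75. Agbl1, Cntnap5b, Kcnip4, Slc7a11 and Tenm2 had 4 each. Their shares of replicate 2 peaks ran from 4.91% in Dmd to 14.3% in Cntnap5b, and the 9.09% of Nlgn1 and Csmd3 lies within that range. With the limit of 10 peaks per 100 kb set to 8 or 15, chosen after the data were seen, 12 of 131 and 19 of 152 sparse genes had at least 4, compared with 13 of 138.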
